A study of Homo sapiens with 6 samples.

Results

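The genes described here are 10 components of the desmosome, found by symbol among the 56638 gene symbols counted in every sample. They are the desmosomal cadherins DSG2, DSG3, DSC2 and DSC3, the armadillo proteins JUP, PKP1, PKP2 and PKP3, and the plakins DSP and PPL. RNA-seq was carried out on HCT116, an established human colorectal carcinoma cell line, in 3 WT and 3 METTL3-KO samples. METTL3 is the catalytic subunit of the m6A RNA methyltransferase, and per the labels its gene had been disrupted with CRISPR/Cas9. The names of the deposited files mark the WT samples NC and the METTL3-KO samples SiM3 instead, and the study also used siRNA against METTL3 in other experiments. For its RNA-seq the study names METTL3-knockout and WT HCT116 cells, as the labels do. Because the file names differ from this, whether the sequenced cells were the knockout line or cells treated in another way is not settled here. METTL3-KO is used below as the name the labels give. The knockout line of the study had been made by lentivirus as a single monoclonal line, so for cells of that line the knockout and the properties of the clone cannot be told apart. Cells of both groups were grown in McCoy's 5a medium with serum and came from the same range of passages. Nothing in the sources used here says that the 3 samples of a group were separate cultures, and p-values then measure only the spread between these samples.

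Desmosomes are spot-like junctions that hold epithelial and heart muscle cells together. Desmogleins and desmocollins bind their partners on the next cell, plakoglobin (JUP) and the plakophilins bind the cadherin tails and each other, and desmoplakin (DSP) ties this plaque to keratin filaments. Simple epithelia such as the lining of the colon rely on DSG2 and DSC2, whereas DSG1, DSG3, DSC1 and DSC3 belong mainly to stratified epithelia such as the epidermis.

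Between 20936091 and 30142144 read pairs were assigned to genes per sample. The count of METTL3 was 841, 682 and 623 in WT libraries but 219, 169 and 162 in METTL3-KO libraries, so the targeted gene fell by 2.04 on the log2 scale (SE 0.0906, edgeR's quasi-likelihood test, Benjamini-Hochberg adjusted p = 1.59e-07). The transcript was lower but still present in the libraries labelled METTL3-KO, which does not tell a knockout from a knockdown. All 10 of the colon epithelium markers examined were above 1 CPM (the usual count scaled to a common library size, here with TMM factors) in every sample, with a summed level of 6947 to 8558 CPM in WT and 10030 to 11120 CPM in METTL3-KO samples. Of 6 keratinocyte markers, KRT1 was at 0 and 2 were above 1 CPM in every sample (summed level 11.6 to 17.4 CPM against 16.98 to 21.0 CPM). Of 4 fibroblast markers, COL3A1 was at 0 and 1 was above 1 CPM (4.69 to 6.19 against 6.30 to 7.91 CPM), and of 4 leukocyte markers 1 was, CD14 (5.49 to 6.90 against 6.40 to 10.5 CPM). None of 3 endothelial markers was above 1 CPM, and PECAM1 was at 0. The part of these cell types in the results below was not tested. The replicate numbered 3 stood apart in each group. The chi-square statistic per gene was 2.58 between WT replicates 1 and 2 and 23.1 and 23.0 against WT replicate 3, and it was 2.34 between METTL3-KO replicates 1 and 2 and 11.2 and 8.32 against METTL3-KO replicate 3. Across 10012 genes, the deviation of a library from its group mean rose with transcript length in WT replicate 3 (Spearman's rho 0.664) and fell with it in METTL3-KO replicate 3 (rho -0.603), which is the opposite sign in each case to the other two libraries of the group. Genes of 1 library are not independent replicates, and these rho values describe the libraries only. Results are therefore given with and without the libraries numbered 3, a choice made after the data were seen.

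Desmosome genes were mostly higher in METTL3-KO than in WT cells. In edgeR's test 6 of the 10 genes were called higher at an adjusted p under 0.05, namely DSG2, DSC2, JUP, PKP2, DSP and PPL, 0 were called lower, and DSG3, DSC3, PKP1 and PKP3 were not called. Of all 22452 genes tested, 13.3% were called higher and 13.2% lower. DESeq2 also called 6 higher and 0 lower, against 13.0% and 12.0% of all genes. At an unadjusted p under 0.05 edgeR placed 6 higher and 1, PKP1, lower, against 18.4% and 19.1%. In bulk RNA a change in the share of cells with a transcript and a change in the amount per cell cannot be told apart. The median log2 fold change of the desmosome genes was 0.53, against -0.02 over all genes tested. All 10 passed the filter of at least 5 counts in a condition, but DSG3 passed through its METTL3-KO counts alone. The median of the desmosome genes includes DSG3. With the stricter filter of edgeR's filterByExpr, 8 of them were tested and 6 were called higher, against 18.9% of 16124 genes. The METTL3-KO samples were all above the WT samples for 7 of the 10 genes, the 6 called ones and PKP3, a pattern met by 20.2% of all genes tested. They were all below the WT samples for PKP1 alone, a pattern met by 20.7%. Leaving out the libraries numbered 3 again gave 6 higher and 0 lower, where 21.4% of all genes tested were called higher and 22.7% lower.

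**Figure D1:**
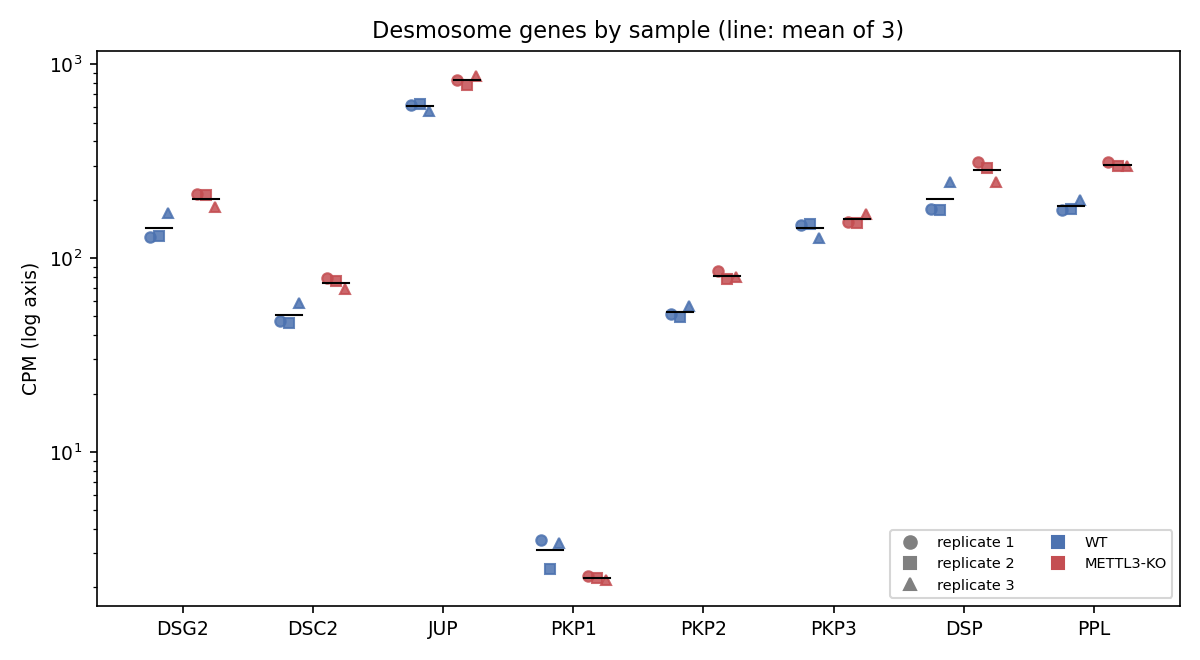
Expression of 8 desmosome genes in each sample, in CPM on a log axis, with WT in blue, METTL3-KO in red, a symbol for each replicate number and a line at the mean of 3 samples. The METTL3-KO points of DSG2, DSC2, JUP, PKP2, PKP3, DSP and PPL lie above all WT points and those of PKP1 lie below them, while the triangles of replicate 3 approach each other in DSG2, DSC2 and DSP. DSG3 and DSC3, with at most 8 counts in a sample, are left out.

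The DNA just before the transcription starts of the desmosome genes was examined in RefSeq windows (GRCh38.p14) of 250 bases that end at the base before the annotated start. Windows were given for 7 of the 10 genes, 9 windows in all, with a pair of alternative starts for DSC2 and for JUP, while PKP2, PKP3 and PPL had none. The E-box CAGGTG, or CACCTG on the other strand, is the element through which SNAIL and ZEB repressors bind epithelial promoters. It was present in 4 of the 9 windows, those of DSG2, DSC2, DSP and JUP, and in 17.5% of all 35116 windows of the same length. These 4 windows are printed because they hold the E-box. They belong to genes called higher, and PKP2 and PPL, also called higher, had no window to examine. The windows of DSG3, DSC3 and PKP1, none of them called higher, and the other start of DSC2 and of JUP did not hold these letters. DSG3 and DSC3 had at most 8 counts in a sample, so a difference was not detectable for them at this depth. Whether the E-box goes with a call was not tested. Counted back from the start, E-boxes began at -232 and -116 in DSG2, at -156 in DSC2, at -178 and -85 in DSP, and at -54 and -43 in JUP. The GC box GGGCGG or CCGCCC was found in 6 of the 9 windows (42.6% of all windows), and its letters did not overlap those of the E-box. The TATA motif TATAAA or TTTATA was found in 0 of 9 (10.7% of all windows), and the grainyhead motif AACCNGTT or AACNGGTT in 0 of 9 (1.49% of all windows). These matches describe letters in a window, not bound sites. The windows are printed 5′ to 3′ on the strand of the gene, DSG2 at chr18:31497927-31498176 (plus strand), DSC2 at chr18:31102422-31102671 (minus strand), DSP at chr6:7541421-7541670 (plus strand) and JUP at chr17:41785977-41786226 (minus strand), with the E-boxes in capitals:
DSG2: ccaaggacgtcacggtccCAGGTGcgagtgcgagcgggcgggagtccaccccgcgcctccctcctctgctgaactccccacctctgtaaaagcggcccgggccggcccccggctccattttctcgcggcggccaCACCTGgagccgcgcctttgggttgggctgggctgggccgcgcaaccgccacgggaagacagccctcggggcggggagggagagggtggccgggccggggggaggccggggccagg
DSC2: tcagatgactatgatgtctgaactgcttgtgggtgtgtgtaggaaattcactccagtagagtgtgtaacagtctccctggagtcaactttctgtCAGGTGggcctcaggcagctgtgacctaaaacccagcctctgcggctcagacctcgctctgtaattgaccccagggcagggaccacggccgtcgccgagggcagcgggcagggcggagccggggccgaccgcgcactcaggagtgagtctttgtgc
DSP: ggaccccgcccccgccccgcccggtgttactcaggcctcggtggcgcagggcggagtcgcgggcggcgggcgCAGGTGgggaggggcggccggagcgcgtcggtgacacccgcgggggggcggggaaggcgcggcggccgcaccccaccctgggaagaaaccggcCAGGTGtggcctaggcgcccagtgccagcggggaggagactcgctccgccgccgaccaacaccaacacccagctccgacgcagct
JUP: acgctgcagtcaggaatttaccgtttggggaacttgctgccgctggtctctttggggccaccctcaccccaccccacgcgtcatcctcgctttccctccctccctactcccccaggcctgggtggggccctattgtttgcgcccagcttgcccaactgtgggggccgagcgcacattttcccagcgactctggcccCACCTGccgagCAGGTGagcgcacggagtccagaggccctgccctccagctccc

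The cadherins of simple epithelium rose. DSG2 (chr18:29078140-29128971, plus strand, GRCh37), the desmoglein found in all desmosome-bearing tissues, had 128, 130 and 170 CPM in WT replicates 1, 2 and 3 and 214, 211 and 184 CPM in METTL3-KO replicates. The groups did not overlap, but the highest WT and the lowest METTL3-KO sample were the ones numbered 3, and they were also the closest. The means were 143 ± 23.6 and 203 ± 16.7 CPM (SD, n = 3 each), a 1.42-fold rise (log2 fold change 0.50, 95% interval 0.27 to 0.74; edgeR adjusted p = 0.00476). DSC2 (chr18:28638806-28682485, minus strand), the desmocollin of simple epithelium, had 47.6, 46.3 and 58.6 CPM in WT and 78.6, 76.0 and 69.5 CPM in METTL3-KO samples. Here too the groups were apart and replicate 3 was the WT sample nearest to the other group. The rise was 1.47-fold (log2 fold change 0.56, 95% interval 0.34 to 0.77; edgeR adjusted p = 0.00127), from 50.8 ± 6.76 to 74.7 ± 4.72 CPM (SD, n = 3 each). DSG2 and DSC2 had log2 fold changes of 0.71 and 0.72 without the libraries numbered 3. The lncRNA gene RP11-408H20.1 (chr18:28638806-28639359) overlaps the 3′ end of DSC2 on the same strand, so reads there could not be split with certainty, but it had only 11 to 21 counts a sample. A copy of the small nucleolar RNA snoU13 (chr18:28652470-28652573) lies within DSC2 on the opposite strand, with 201 to 315 counts a sample under a symbol that 464 annotated copies share, so these counts cannot be assigned to this copy. The antisense genes DSG2-AS1 and DSCAS also overlap these cadherins and are not analysed here. Whether the counting used strand is not stated in the sources used here.

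The cadherins of stratified epithelium were close to the detection limit. DSG3 (chr18:29027704-29058665, plus strand), the target of pemphigus vulgaris autoantibodies, had WT counts of 1, 1 and 0 and METTL3-KO counts of 1, 4 and 1, and the count of 0 in WT replicate 3 allows up to 0.141 CPM, counting error only. No fold is given for it. DSC3 (chr18:28569331-28622781, minus strand), the basal desmocollin of stratified epithelium, had 3, 2 and 4 counts in WT and 5, 4 and 8 in METTL3-KO samples. The groups overlapped, and the log2 fold change of 0.81 had a 95% interval of -0.51 to 2.14 (edgeR adjusted p = 0.364), so that a difference was not detectable at this depth. Per kilobase of exon, DSG2 made up at least 99.85% of the summed DSG2 and DSG3 level in every sample and DSC2 at least 99.2% of the summed DSC2 and DSC3 level.

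Plakoglobin rose as well. JUP (chr17:39910856-39943183, minus strand), which also joins the adherens junction as a relative of beta-catenin, had 619, 626 and 577 CPM in WT and 830, 787 and 871 CPM in METTL3-KO samples. The groups were well apart, and unlike for DSG2 and DSC2 the samples numbered 3 were the farthest apart of all. The means were 607 ± 26.2 and 829 ± 42.2 CPM (SD, n = 3 each), a 1.37-fold rise (log2 fold change 0.45, 95% interval 0.30 to 0.60; edgeR adjusted p = 0.000540). Its log2 fold change was 0.38 without those samples.

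Of the plakophilins, armadillo proteins that cluster the cadherins and DSP, only PKP2 was called in edgeR's test on all 6 samples. PKP2 (chr12:32943679-33049732, minus strand), the plakophilin of simple epithelia and heart, had 51.6, 49.5 and 56.7 CPM in WT and 85.8, 78.2 and 79.5 CPM in METTL3-KO samples. These groups were far apart, with means of 52.6 ± 3.70 and 81.1 ± 4.07 CPM (SD, n = 3 each). PKP2 rose 1.54-fold (log2 fold change 0.63, 95% interval 0.45 to 0.80; edgeR adjusted p = 0.000144). RPL35AP27 and ENSG00000274976 overlap PKP2 and are not analysed here. PKP3 (chr11:392614-404908, plus strand), which most epithelia express, had 149, 150 and 128 CPM in WT and 154, 152 and 169 CPM in METTL3-KO samples. All METTL3-KO values were above all WT values, but samples 1 and 2 of both groups lay within a few CPM of each other and only the samples numbered 3 were clearly apart. Its log2 fold change was 0.15 (95% interval -0.03 to 0.33; edgeR adjusted p = 0.199). It passed the threshold after each library was corrected for transcript length and GC content (log2 fold change 0.20, edgeR adjusted p = 0.00475), and without the libraries numbered 3 it was 0.03. Adjusted p for PKP3 ran from 0.163 to 0.434 when 1 sample was left out. PKP1 (chr1:201252580-201302121, plus strand), a plakophilin of stratified epithelium, was far less abundant, with 96, 56 and 72 counts in WT and 69, 49 and 51 in METTL3-KO samples. In CPM these were 3.50, 2.48 and 3.38 against 2.29, 2.23 and 2.17, so the METTL3-KO samples were all lower, although WT replicate 2 was close to them. The log2 fold change was -0.49 (95% interval -0.87 to -0.10) with an edgeR adjusted p of 0.0647, above the threshold. It was called lower with the length and GC correction (log2 fold change -0.54, edgeR adjusted p = 0.0323) and without WT replicate 2 (-0.61, adjusted p = 0.0313). Leaving out 1 sample at a time gave adjusted p from 0.0313 to 0.222 for PKP1.

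Both plakins rose. DSP (chr6:7541571-7586947, plus strand), the link from the plaque to keratin filaments, had 180, 178 and 246 CPM in WT and 312, 291 and 248 CPM in METTL3-KO samples. The samples numbered 3 almost met, at 246 CPM in WT and 248 CPM in METTL3-KO, while the other 4 samples were far apart. The means were 201 ± 38.8 and 284 ± 32.6 CPM (SD, n = 3 each), a 1.41-fold rise (log2 fold change 0.50, 95% interval 0.22 to 0.77; edgeR adjusted p = 0.0113). This call was lost without WT replicate 1 (edgeR adjusted p = 0.0539), without METTL3-KO replicate 1 (0.0628) and without METTL3-KO replicate 2 (0.0501), where the log2 fold change was 0.42, 0.43 and 0.48. The adjusted p over all samples left out in turn ran from 4.90e-06 to 0.0628. Without both libraries numbered 3 the log2 fold change of DSP was 0.75, and with the length and GC correction it was 0.46 (edgeR adjusted p = 6.71e-05). PPL (chr16:4932508-5010742, minus strand), periplakin, which binds keratin filaments and belongs to the cornified envelope in the epidermis, had 176, 180 and 198 CPM in WT and 313, 300 and 299 CPM in METTL3-KO samples. There was a wide gap between the groups and little spread within METTL3-KO. PPL showed the largest fold of the 6 called genes, 1.64-fold (log2 fold change 0.72, 95% interval 0.56 to 0.88; edgeR adjusted p = 2.72e-05), with means of 185 ± 11.9 and 304 ± 7.71 CPM (SD, n = 3 each). SEC14L5 overlaps its 5′ end on the opposite strand, with 1 to 6 counts a sample. A copy of Y_RNA (chr16:5001774-5001892) lies within PPL on the same strand, and the 442 to 658 counts a sample under that symbol are shared by 803 annotated copies and cannot be assigned to this one. The antisense gene DSP-AS1 overlaps DSP and is not analysed here.

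DSP, DSG2 and DSC2 were the genes whose replicate 3 deviated most among those with over 10 counts. In WT replicate 3 they lay 0.31, 0.26 and 0.21 above the group mean on the log2 scale, and in METTL3-KO replicate 3 they lay 0.19, 0.14 and 0.10 below it (deviations of -0.19, -0.14 and -0.10). PPL, PKP1 and PKP2 deviated in the same direction by less, 0.10, 0.13 and 0.11 in WT replicate 3 and -0.02, -0.04 and -0.03 in METTL3-KO replicate 3. JUP and PKP3 deviated the other way, by -0.07 and -0.15 in WT replicate 3 and by 0.07 and 0.09 in METTL3-KO replicate 3. The longest annotated transcripts measure 12377 nt for DSC2, 9697 nt for DSP, 6251 nt for PPL, 5697 nt for DSG2, 5447 nt for PKP1, 4361 nt for PKP2, 3505 nt for JUP and 2817 nt for PKP3. The deviations did not follow this order strictly, since DSC2, with the longest transcript, deviated less than DSP and DSG2, and PPL less than the shorter DSG2, and the part of transcript length in them was not tested gene by gene. After the correction for length and GC content, which called 17.0% of all genes higher and 16.7% lower, DSG2, DSC2, JUP, PKP2, DSP and PPL were called higher with log2 fold changes of 0.50, 0.54, 0.44, 0.62, 0.46 and 0.66. DSG2, DSC2, JUP, PKP2 and PPL were called higher in all 14 alternative fits, and DSP in 10 of 14.

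**Figure D2:**
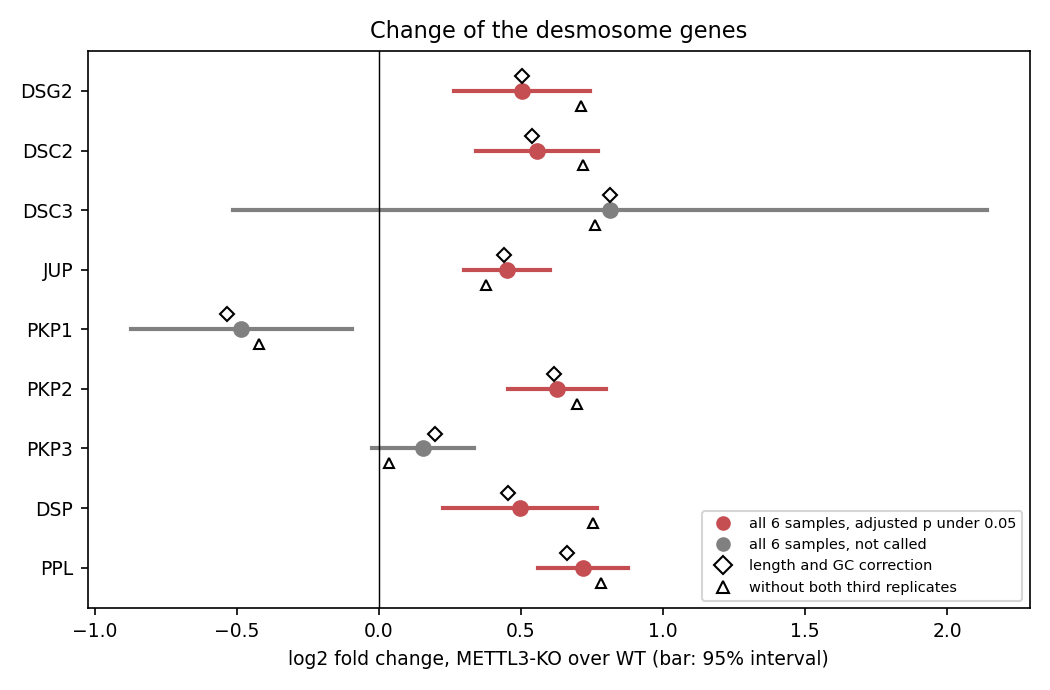
Log2 fold change of 9 desmosome genes, METTL3-KO over WT, with a bar for the 95% interval, in red where the adjusted p was under 0.05 and in grey where it was not. Diamonds give the value after correction for transcript length and GC content and triangles the value without the libraries numbered 3. The 6 red genes lie between 0.45 and 0.72, the triangles of DSG2 and DSP lie to the right of their circles at 0.71 and 0.75, and DSG3 is left out for its low counts.

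Levels of different genes were compared per kilobase of exon, taking the union of each gene's annotated exons. JUP stood first with 123 ± 5.31 CPM per kb in WT and 168 ± 8.54 in METTL3-KO samples. PKP3 followed at 37.5 ± 3.30 and 41.7 ± 2.38 CPM per kb, then PPL at 24.0 ± 1.55 and 39.5 ± 1.00, DSG2 at 15.1 ± 2.48 and 21.4 ± 1.76, and DSP at 14.8 ± 2.85 and 20.8 ± 2.39 (SD, n = 3 each). PKP2 had 5.11 ± 0.360 and 7.89 ± 0.395 CPM per kb, DSC2 4.07 ± 0.541 and 5.98 ± 0.378, and PKP1 0.502 ± 0.0897 and 0.359 ± 0.00968, with DSC3 and DSG3 below 0.05 in every sample. The order of the means was the same in both groups. DSG2 and DSP overlapped in both, PKP3 and PPL overlapped in METTL3-KO samples only, and so did DSC3 and DSG3, while all other neighbours in the order were apart. JUP held 54.9% of the summed level of the 10 genes, averaged over the 6 samples. With coding length in place of exon length, DSG2 came before PPL in both groups.

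Shares within a family do not depend on how libraries are scaled. Among the plakophilins PKP3 took 87.6, 88.3 and 84.8% of the summed level per kilobase of exon in WT samples and 82.4, 83.4 and 84.6% in METTL3-KO samples. PKP2 took 11.2, 10.8 and 13.9% in WT and 16.9, 15.8 and 14.7% in METTL3-KO samples, and PKP1 1.26, 0.892 and 1.37% against 0.747, 0.747 and 0.665%. The PKP2 share was higher and the PKP1 and PKP3 shares were lower in every METTL3-KO sample, although the PKP3 shares of the samples numbered 3 differed by under 1 percentage point. The mean shift was 3.87 percentage points for PKP2, -3.42 for PKP3 and -0.45 for PKP1. It depended on the length used for PKP2 and PKP3 in size, not in direction, and was 5.39 and -5.06 points without the libraries numbered 3. Between the plakins, DSP took 36.6, 35.9 and 41.2% in WT and 36.1, 35.5 and 31.9% in METTL3-KO samples, which overlapped.

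Whether genes of the desmosome differed in their response was tested on log2 ratios of counts within a library, by a two-sided exact permutation test over samples. With 3 samples against 3 this exact test cannot go below p = 0.1, and the 5 ratios tested were adjusted by Benjamini-Hochberg. The ratio of PKP1 to PKP2 was 0.0678, 0.05004 and 0.0596 in WT and 0.0267, 0.0285 and 0.0273 in METTL3-KO samples. The groups were apart, and the ratio was 0.468 times as high in METTL3-KO samples (log2 difference -1.09, exact p = 0.1, adjusted 0.25). The ratio of PKP3 to PKP2 was 2.89, 3.03 and 2.25 in WT and 1.80, 1.95 and 2.12 in METTL3-KO samples. These groups were apart too, with the samples numbered 3 nearest each other (log2 difference -0.47, exact p = 0.1, adjusted 0.25). Neither ratio could pass an adjusted threshold of 0.05 in this design. The ratios JUP to DSP (log2 difference -0.06, exact p = 1, adjusted 1), PPL to DSP (0.21, exact p = 0.2, adjusted 0.333) and DSC3 to DSC2 (0.27, exact p = 0.6, adjusted 0.75) overlapped between groups. The ratio of DSG3 to DSG2 could not be computed on the log scale because of a count of 0.

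All of the DSG and DSC genes lie in 1 cluster on chromosome 18, from the start of DSC3 to the end of DSG2 (chr18:28569331-29128971, 559.6 kb, GRCh37). Together with 250 kb on either side it holds 16 annotated genes that were matched to a counted symbol, and 6 of them reached 10 counts in a sample. In order of position these were DSC2, RP11-408H20.1, DSG4, DSG2, TTR and B4GALT6. DSG4, the desmoglein of the hair shaft, had 10, 10 and 10 counts in WT and 44, 26 and 18 in METTL3-KO samples (log2 fold change 1.44, 95% interval 0.71 to 2.16; edgeR adjusted p = 0.00713). All METTL3-KO samples were above the WT samples, but the gene stayed rare, with means of 0.425 ± 0.0544 and 1.14 ± 0.349 CPM (SD, n = 3 each). Next to DSG2, the transthyretin gene TTR had 17, 9 and 18 counts against 31, 25 and 24 (log2 fold change 0.77, edgeR adjusted p = 0.0817) and was not called. B4GALT6, which encodes a lactosylceramide synthase, had 187, 146 and 163 counts in WT and 139, 104 and 104 in METTL3-KO samples and fell (log2 fold change -0.60, 95% interval -0.87 to -0.33; edgeR adjusted p = 0.00324). RP11-408H20.1 was not called (log2 fold change 0.33, adjusted p = 0.502). DSC1, with 1 count in all, and DSG1, with 0, 2 and 0 counts against 1, 1 and 1, were too low to test.

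**Figure D3:**
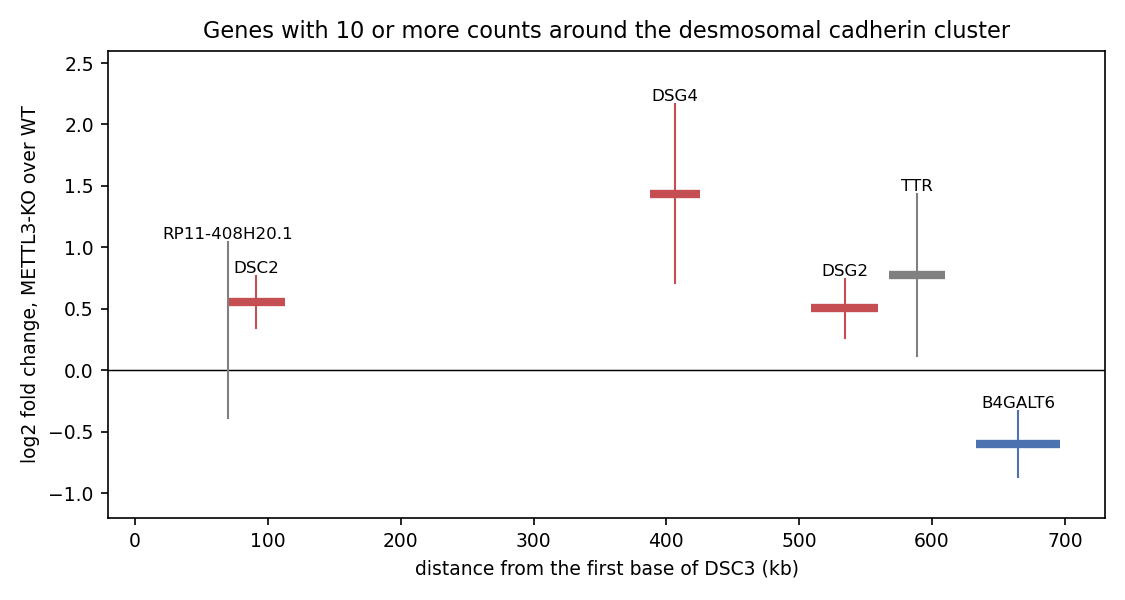
Log2 fold change (METTL3-KO over WT) of the 6 genes with 10 or more counts in and around the desmosomal cadherin cluster, against the distance from the first base of DSC3 in kb. Thick bars span each gene and thin lines its 95% interval, with red for higher, blue for lower and grey for not called. DSC2, DSG4 and DSG2 lie above 0 at 0.56, 1.44 and 0.50, and B4GALT6 lies below 0 at -0.60.

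Of 9 other genes of the desmosome, 7 could be tested, 2 were called higher (PERP and DSG4) and 0 lower, against 13.3% and 13.2% of all genes tested, with a median log2 fold change of 0.28. That median includes CDSN, corneodesmosin, which was not called and passed the filter through its METTL3-KO counts alone (2, 0 and 1 counts against 6, 5 and 1). DESeq2 called 3 higher and 0 lower (13.0% and 12.0% of all genes), and at an unadjusted p under 0.05 edgeR placed 4 higher and 1 lower (18.4% and 19.1%). PERP, a p53 target that encodes a tetraspan membrane protein of desmosomes, had 112, 109 and 106 CPM in WT and 271, 269 and 289 CPM in METTL3-KO samples. It rose further than any of the 6 called desmosome genes above (log2 fold change 1.34, SE 0.0693; edgeR adjusted p = 3.07e-07), with no overlap between groups. EVPL, envoplakin, the partner of periplakin, had 72.8 ± 2.80 CPM in WT and 84.5 ± 4.68 CPM in METTL3-KO samples (SD, n = 3 each; log2 fold change 0.21, edgeR adjusted p = 0.0528). PKP4, a relative of p120-catenin found at desmosomes and adherens junctions, had 246 ± 11.8 and 218 ± 4.05 CPM (log2 fold change -0.17, edgeR adjusted p = 0.0851). With the libraries numbered 3 left out, 3 of these genes were called higher and 2 lower, against 21.4% and 22.7% of all genes.

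Keratins form the filaments to which DSP anchors the desmosome. Of 20 keratin genes examined 14 were tested, 7 were called higher and 0 lower, against 13.3% and 13.2% of all genes tested, with a median log2 fold change of 0.56. DESeq2 also called 7 higher and 0 lower (13.0% and 12.0% of all genes), and 8 were higher and 1 lower at an unadjusted p under 0.05 in edgeR (18.4% and 19.1%). KRT20, a marker of differentiated intestinal epithelium, had 252, 286 and 218 CPM in WT and 733, 706 and 700 CPM in METTL3-KO samples (log2 fold change 1.50, SE 0.0928; edgeR adjusted p = 1.16e-06). The simple epithelial keratin KRT19 had 774, 857 and 633 CPM in WT and 1245, 1309 and 1431 CPM in METTL3-KO samples (log2 fold change 0.82, edgeR adjusted p = 0.000134). Both genes had groups far apart. KRT23 (1.69, adjusted p = 4.11e-06) and KRT80 (0.66, adjusted p = 3.34e-05) rose as well. KRT8 and KRT18, the filament pair of simple epithelia, moved less. KRT8 had 4388, 4491 and 3478 CPM against 4971, 5245 and 5655 CPM (log2 fold change 0.36, edgeR adjusted p = 0.0143), a call that was lost without METTL3-KO replicate 2 (adjusted p = 0.0610) or 3 (0.0539). KRT18 had 583, 604 and 447 CPM against 591, 588 and 673 CPM, which overlapped (log2 fold change 0.18, edgeR adjusted p = 0.244), and without the libraries numbered 3 its log2 fold change was -0.010. Among keratins of stratified epithelium, KRT13 had 437, 364 and 263 counts in WT and 834, 507 and 635 in METTL3-KO samples and rose (log2 fold change 0.81, edgeR adjusted p = 0.000336). KRT15, with 252, 190 and 152 counts against 435, 310 and 320, rose too (0.77, adjusted p = 0.000352). KRT10, with 403, 320 and 208 counts against 437, 347 and 435, was not called (0.33, adjusted p = 0.127). KRT5, KRT6A, KRT6B, KRT14, KRT16 and KRT1, of the same tissues, had at most 3 counts in a sample and were not tested. Leaving out the libraries numbered 3 gave 7 keratins called higher and 1 lower, against 21.4% and 22.7% of all genes.

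Hemidesmosomes anchor the same filaments to the basement membrane. Of their 6 genes, all tested, 3 were called higher and 1 lower, against 13.3% and 13.2% of all genes tested, with a median log2 fold change of 0.33. COL17A1, the collagen of this junction, had 81.3, 82.2 and 94.0 CPM in WT and 160 CPM in each METTL3-KO sample (log2 fold change 0.90, SE 0.0767; edgeR adjusted p = 8.96e-06). Its groups were far apart. PLEC, which encodes plectin, a plakin like DSP, rose from 857 ± 113 to 1224 ± 47.0 CPM (SD, n = 3 each; log2 fold change 0.51, edgeR adjusted p = 0.00116). DST, which encodes the plakin BPAG1, was called higher (0.54, edgeR adjusted p = 0.0131), but not without WT replicate 1 (0.0556), METTL3-KO replicate 1 (0.0653) or METTL3-KO replicate 2 (0.0549). CD151, a tetraspanin that associates with laminin-binding integrins, fell from 318 ± 34.1 to 235 ± 12.4 CPM (-0.44, edgeR adjusted p = 0.00280), with no overlap. ITGA6 and ITGB4 were not called. Without the libraries numbered 3, 5 of these genes were called higher and 1 lower, against 21.4% and 22.7% of all genes.

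Adherens junctions are the actin-linked counterpart of desmosomes and share JUP with them. Of 17 genes listed here as adherens junction genes, a list that takes in further cadherins such as CDH17, 15 were tested. Of these, 4 were called higher and 3 lower, against 13.3% and 13.2% of all genes tested, with a median log2 fold change of 0.15. CDH17, an intestinal cadherin, had 2.003, 2.34 and 2.67 CPM in WT and 9.85, 9.87 and 9.65 CPM in METTL3-KO samples (log2 fold change 2.07, SE 0.135; edgeR adjusted p = 1.58e-06), and the groups were far apart. PVRL4, also called NECTIN4, rose (1.03, adjusted p = 6.82e-06), while PVRL3 (NECTIN3) and AJUBA, a LIM-domain protein of the junction, fell (log2 fold changes of -0.68 and -0.57, adjusted p = 0.000156 and 0.000467). CDH1, which encodes E-cadherin, had 438 ± 35.2 CPM in WT and 516 ± 23.4 CPM in METTL3-KO samples (SD, n = 3 each; log2 fold change 0.23, edgeR adjusted p = 0.0396). That call was lost when WT replicate 1, WT replicate 2, METTL3-KO replicate 1 or METTL3-KO replicate 2 was left out (adjusted p 0.126 to 0.149), and the adjusted p of CDH1 ran from 0.000707 to 0.149 over the 6 fits that left out a sample. CTNNB1, beta-catenin, was not called (log2 fold change 0.10, 95% interval -0.04 to 0.24; adjusted p = 0.301). When the libraries numbered 3 were left out, 9 adherens junction genes were called higher and 3 lower, against 21.4% and 22.7% of all genes.

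**Figure D4:**
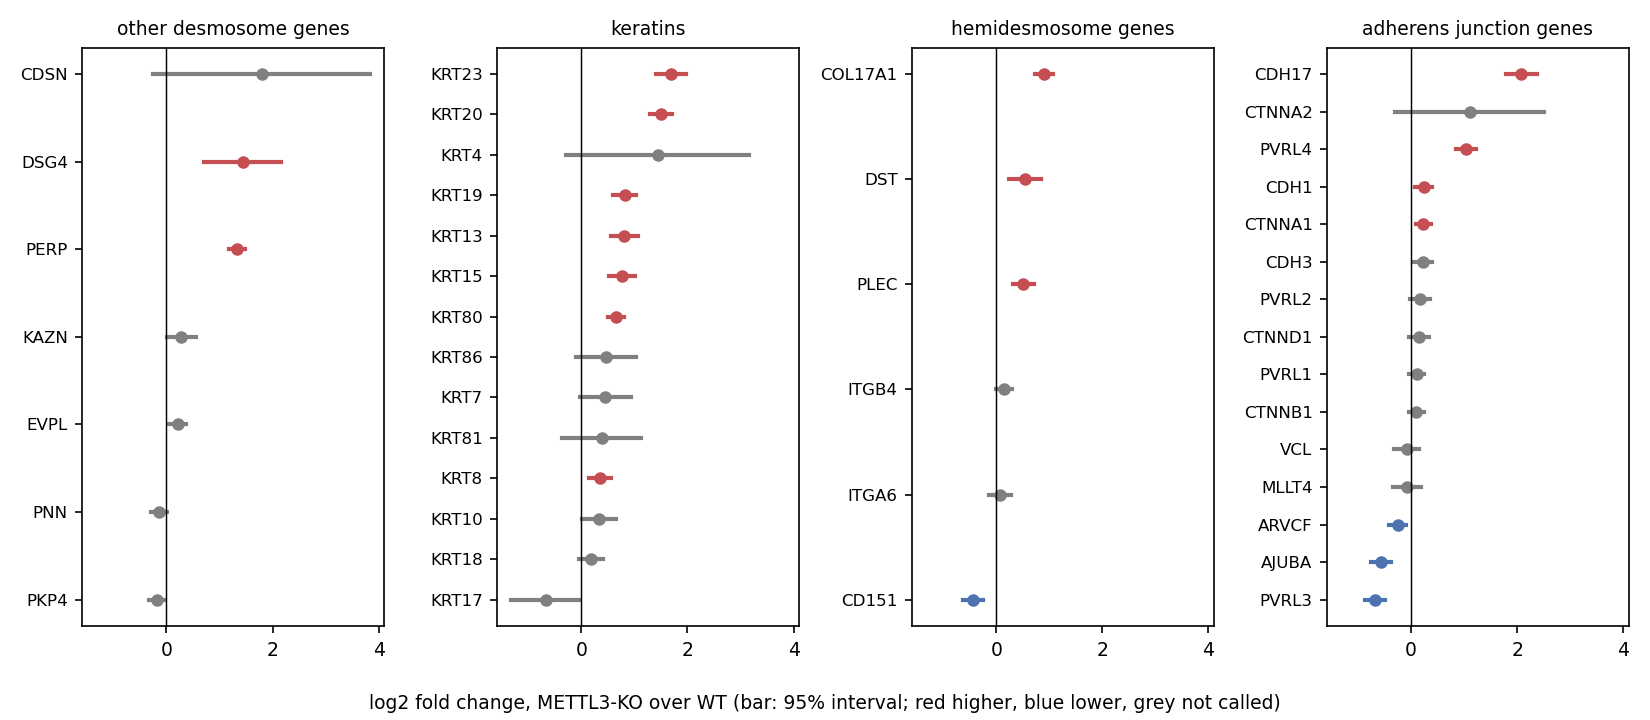
Log2 fold change (METTL3-KO over WT) of the tested genes of the other desmosome, keratin, hemidesmosome and adherens junction lists, with bars for 95% intervals and red for higher, blue for lower and grey for not called. PERP, KRT20 and CDH17 lie at 1.34, 1.50 and 2.07, and the blue genes are CD151, ARVCF, AJUBA and PVRL3.

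Among 13 transcription and splicing factors that set epithelial gene expression, 11 were tested, 2 were called higher and 0 lower, with a median log2 fold change of 0.21. The 11 and their median include TP63, which was not called. It passed the filter through its METTL3-KO counts alone (0, 0 and 1 counts against 2, 1 and 3). With 13.3% of all genes tested called higher, 2 of 11 is near the background. DESeq2 also called 2 higher and 0 lower (13.0% and 12.0% of all genes), and at an unadjusted p under 0.05 edgeR placed 4 higher and 0 lower (18.4% and 19.1%). OVOL1, a zinc-finger repressor of mesenchymal genes, rose from 20.1 ± 0.527 to 30.2 ± 1.36 CPM (SD, n = 3 each; log2 fold change 0.59, edgeR adjusted p = 0.000249). SNAI1, which encodes a SNAIL repressor, had 2.11, 2.21 and 1.92 CPM in WT and 2.99, 2.64 and 4.63 CPM in METTL3-KO samples, with the highest value in METTL3-KO replicate 3 (log2 fold change 0.71, edgeR adjusted p = 0.0318). Its call was lost without that sample (0.44, adjusted p = 0.127), without WT replicate 1 (adjusted p = 0.0764) and without WT replicate 2 (0.0560). GRHL3, a grainyhead factor, and ESRP1, an epithelial splicing regulator, had log2 fold changes of 0.29 and 0.21 (edgeR adjusted p = 0.0635 and 0.0812). ZEB1 had 17 to 37 counts a sample, ZEB2 had at most 6, and SNAI2 and TWIST1 were at 0 in all samples. With the libraries numbered 3 left out, 6 of these factors were called higher and 0 lower, against 21.4% and 22.7% of all genes.

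Desmoglein 2 is cut from the cell surface by ADAM proteases, and protein kinase C alpha loosens desmosomes. Of 6 genes for such sheddases and kinases, all tested, 2 were called higher and 1 lower, against 13.3% and 13.2% of all genes tested, with a median log2 fold change of 0.14. ADAM10 had 143, 147 and 178 CPM in WT and 108, 111 and 92.8 CPM in METTL3-KO samples and fell (log2 fold change -0.58, SE 0.0993; edgeR adjusted p = 0.00102), without overlap. PRKCA, the gene of protein kinase C alpha, had 81.7, 88.1 and 95.6 CPM in WT and 123, 128 and 113 CPM in METTL3-KO samples and rose (log2 fold change 0.46, edgeR adjusted p = 0.00147), and ADAM15 rose too (0.43, adjusted p = 0.00677). ADAM17 was not called (-0.30, edgeR adjusted p = 0.0555). From the other 4 libraries alone, 4 of the 6 genes were called higher and 1 lower, against 21.4% and 22.7% of all genes.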

How the data were processed

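Total RNA of HCT116 cells was sequenced as TruSeq libraries. The submitters' processing notes name TopHat2 2.0.11, HTSeq and hg19/GRCh37, and per the study's methods reads were paired-end and counted per gene by htseq-count in union mode. What the authors deposited are these counts, unnormalized, by gene symbol. Pairs without a gene (6.03 to 9.08%), with more than 1 (7.95 to 8.77%) or with more than 1 alignment (13.4 to 14.7%) stayed out of library sizes and tests. The names of the deposited files mark the samples NC and SiM3 where the labels give WT and METTL3-KO, and number the WT samples differently. Groups and numbers came from the labels, and which treatment the sequenced cells had received was not settled.

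Genes with fewer than 5 counts in both conditions were removed, leaving 22452. METTL3-KO was compared with WT by edgeR 4.0.16 (quasi-likelihood test, TMM, two-sided, Benjamini-Hochberg over all genes tested, R 4.3.3). CPM used TMM-scaled library sizes, a standard error was the log2 fold change over the square root of F, and intervals covered 95%. Positions and lengths came from GENCODE v44 on GRCh37, to which 35694 of 56638 symbols matched, 1822 by an older symbol. A count of 3, scaled to CPM in each library, set the detection floor of that library. Alternatives were DESeq2 1.42.0, RLE scaling, filterByExpr, no filter, a replicate block, splines (5 degrees of freedom) on transcript length and GC content, and leaving out samples. The splines were fitted on genes whose mean log2 CPM was over 3, and 5197 tested genes without a length took the median fitted correction of each library. Genes were named by a rule: all desmosome genes, the 4 genes with the smallest adjusted p of each other list, direct partners, and counted or overlapping genes near them. KRT4, KRT10, KRT13, KRT15, KRT17, CDSN and TP63 were named after their values were seen. Also outside this rule are ITGA6, ITGB4, ARVCF, ZEB1, ZEB2, SNAI2, TWIST1, single cell type markers and genes given as too low to test. The genes and lists were chosen with earlier results of these data known. The fits were tested on simulated counts.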

Additional observations from a re-analysis of the deposited data

How the results depend on the processing

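Of 137 alternative values for the log2 fold changes of the desmosome genes, 129 kept direction and side of the threshold, 4 lost the call (all DSP), 4 gained one (PKP1 and PKP3, in 2 fits each) and 0 changed sign. Of 448 for the other named genes, 405 kept both, 17 lost and 25 gained a call, and 1 changed sign, KRT18 without the libraries numbered 3 (-0.0100, and 0.06 to 0.27 with 1 sample left out). The cause was not tested for any of these. All genes called higher and lower numbered 2986 and 2959, against 1810 and 1719 with the replicate block and 4555 and 4823 without the libraries numbered 3.

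Deviations of same-numbered samples correlated at -0.585, -0.390 and -0.783, so the numbers did not pair the samples. With the replicate block, 5 desmosome genes were called higher (DSP adjusted p = 0.0548), with 4 adherens junction genes (7 without the block) and 1 transcription or splicing factor (2 without). KRT8, CDH1, SNAI1 and ADAM15 also lost their call there.

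Desmosome genes called lower numbered 1 with the length and GC correction and 0 to 1 when a sample was left out, the 1 being PKP1 without WT replicate 2. With the length and GC correction 4 other desmosome genes, 4 transcription or splicing factors and 5 sheddases and kinases were called, and without a filter 4 factors and 5 sheddases and kinases. Without the libraries numbered 3 the calls were 5 other desmosome genes, 12 adherens junction genes, 6 factors and 5 sheddases and kinases. Leaving out 1 sample gave 4 to 8 adherens junction genes and 1 to 5 factors, the most of each without WT replicate 3.

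JUP held 57.4% of the summed level with coding length. The PKP2 share shifted by 5.57 points with the longest transcript, 6.66 with coding length and 5.39 without the libraries numbered 3, the PKP3 share by -5.20, -5.95 and -5.06, and the PKP1 share by -0.71 with coding length. Without the libraries numbered 3 the DSP share shifted by -0.49 points, and the log2 differences were -0.66 for PKP3 to PKP2, -0.38 for JUP to DSP and 0.030 for PPL to DSP. Leaving out 1 sample gave -0.25 to 0.046 for JUP to DSP, -0.60 to -0.39 for PKP3 to PKP2, 0.11 to 0.27 for PPL to DSP, -0.10 to 0.51 for DSC3 to DSC2 and -0.035 to 0.189 points for the DSC3 share, with 3.29 to 4.84 points for PKP2, -4.48 to -2.69 for PKP3 and -4.41 to -1.76 for DSP. Depth limits DSG3 and DSC3, which had at most 8 counts a sample. The planned ratio of DSG3 to DSG2 was not run because of a count of 0.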
